A study of Mus musculus with 16 samples.

Results

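A set of 10 genes that mark intraepithelial lymphocytes were followed through the RNA-seq libraries of a study of the ubiquitin ligase scaffold CUL4B in the mouse small intestine. They were chosen by symbol, as Cd3e, Cd3g, Cd8a, Ptprc, Itgae, Gzma, Gzmb, Ccl5, Nkg7 and Fcer1g. All 10 were found, among 52636 genes in the tables of the crypts and of the inducible organoids and 54532 genes in the table of the other organoids. The study compared Cul4b knockout with wildtype (WT) within 3 experiments on the C57BL/6 background, one of crypts (4 WT and 4 KO libraries) and a pair of organoid experiments (2 WT and 2 KO libraries in each). The KOIEC mice carried pVillin-Cre and Cul4b fn/Y, and their WT controls were Cul4b fn/Y. Crypts and one set of organoids (Villin organoids) came from this model. KOCAG organoids (CAG organoids) carried CAG-CreERT2 and Cul4b fn/Y, and Cre in organoids was induced with 10 µM 4-OHT. The sources do not say whether the WT organoids of that experiment carried CreERT2 or received 4-OHT. The labels mark the organoid sets with the letters I and O and name no Cre line, and they were taken as the Villin and the CAG set in that order. Most of the study's mice were 8 to 16 weeks old. Crypts were taken by scraping off the villi, incubating pieces of intestine in 2 mM EDTA for 30 min and passing the suspension through a 70 µm strainer. No step sorted epithelial cells from lymphocytes. Villin-Cre acts in the intestinal epithelium, so lymphocytes are not its target.

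Intraepithelial lymphocytes are mostly T cells that sit between epithelial cells of the gut, above the basement membrane, and in the small intestine most of them lie along the villi. Many carry CD8 as an alpha-alpha homodimer and a γδ or αβ T cell receptor, hold ready stores of granzymes, and are kept in place by the integrin CD103, whose ligand is E-cadherin on the epithelial cell. Organoids grown from crypts are cultures of epithelium alone, which makes them a reference for how much of each transcript the epithelium itself gives.

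Total counts were 9311734 to 13479974 per crypt library and 7348191 to 16881395 over all 16 libraries. A level is given as CPM, which sets the reads of a gene against the library's total, scaled by TMM factors within an experiment. In the crypts 3 counts, taken as the floor of detection, equal 0.223 to 0.322 CPM, which covers counting error only. Cul4b itself, the deleted gene, was at 31.7 to 38.3 CPM in the WT crypts and 0.848 to 2.21 CPM in the KOIEC crypts. In the organoids Cul4b was at 70.1 to 83.2 CPM in the WT libraries and 1.69 to 5.19 CPM in the KO libraries, so all 16 libraries matched their labels of WT or KO. The labels and methods name the replicates as biological but do not say which mouse gave which library.

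The lymphocyte signal belonged to the crypt libraries. The 10 genes held 12850 counts in the 8 crypt libraries and 212 counts in the 8 organoid libraries, although the organoid libraries had more counts in all (97543204 against 89756238). Crypts and organoids were prepared as separate experiments, so tissue and experiment cannot be told apart, and no test was made between them. For 3 members there were no counts at all in any organoid library. Gzma, a granule protease, had 5165 counts in the crypts and was at least 1871-fold higher there than 3 counts over the 8 organoid libraries would allow. On the same floor, Gzmb, the other granzyme, was at least 698-fold higher from 1928 crypt counts. Cd8a, the alpha chain of the CD8 coreceptor, was at least 344-fold higher from 950 crypt counts.

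The remaining members were counted in organoids at low numbers. Nkg7, a membrane protein of cytotoxic granules, had 1 count over the 8 organoid libraries and 282 counts in the crypts. Cd3g and Cd3e, subunits of the T cell receptor complex, had 4 and 5 organoid counts. Ccl5, a chemokine kept by memory and cytotoxic T cells, had 7. Together with the 3 genes at 0, these 7 members came to 17 counts in the organoids. The rest came from Itgae (102), Fcer1g (63) and Ptprc (30), and Itgae and Fcer1g were counted in every organoid library. Pooled over libraries, the level in crypts was 3.83 times that in organoids for Fcer1g and 11.2 times for Itgae, against 45.2 times for Ptprc, 56.5 times for Cd3e and 124 times for Cd3g, and it was higher still for Ccl5. Fcer1g, the common gamma chain of Fc receptors, and Itgae, the alpha chain of CD103, thus had the smallest ratios among the 6 members whose organoid counts were above the floor. Haspin lies inside the Itgae gene on the opposite strand, and the exons of the genes share 0 bases.

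**Figure D1:**
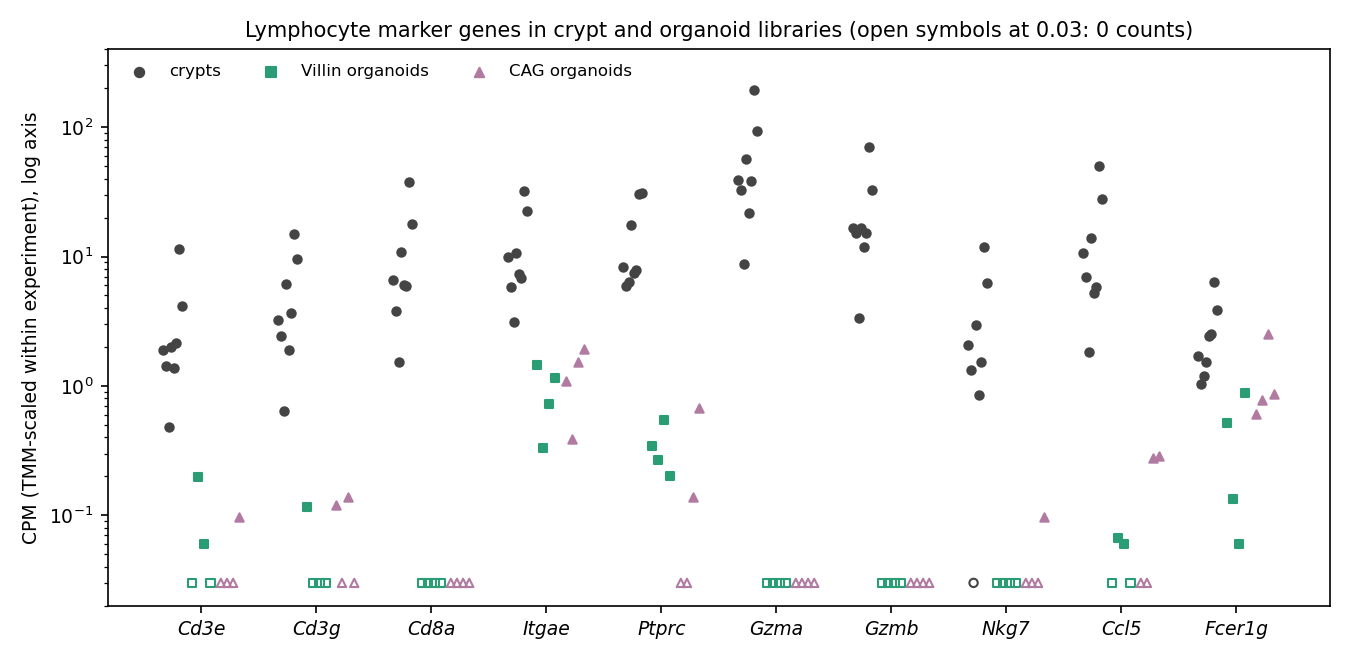
Each point is 1 library and gives the TMM-scaled CPM of a member on a log axis, in crypts (8 libraries, dots), Villin organoids (4 libraries, squares) and CAG organoids (4 libraries, triangles), with open symbols at the bottom for libraries with 0 counts. Gzma, Gzmb and Cd8a lie at 0 in all 8 organoid libraries, while Itgae and Fcer1g are above 0 in each of them.

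Between genotypes, only Itgae had counts enough to be tested in the organoids. In the KOIEC experiment Itgae was at 1.44 and 0.332 CPM in WT and at 0.723 and 1.15 CPM in KOIEC. The groups overlapped, and the log2 fold change was 0.06 (standard error, SE, 0.80), at an adjusted p of 0.988 in the quasi-likelihood test of edgeR. In the KOCAG experiment Itgae was at 1.08 and 0.389 CPM in WT and at 1.53 and 1.92 CPM in KOCAG. The log2 fold change there was 1.21 (SE 0.52), at an adjusted p of 0.102 in edgeR (unadjusted p = 0.0417, edgeR). In that experiment 31.5% of 13598 tested genes were called. In the KOIEC organoids 0.00717% of 13938 tested genes were called. Fcer1g fell below the filter on low counts in both experiments. Its counts in the KOCAG experiment were 5 and 6 in WT and 18 and 9 in KOCAG, and without the filter its log2 fold change was 1.19 (SE 0.56, edgeR adjusted p = 0.136). With 2 libraries on each side, the smallest p of an exact permutation test is 0.333.

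In the crypts, the question was whether the lymphocyte genes differed between WT and KOIEC. All 10 members passed the low-count filter. Their log2 fold changes, KOIEC over WT, ran from 1.00 to 1.70 with a median of 1.37, while the median over all 13427 tested genes was -0.01 and 48.9% of these genes were above 0. A single member, Fcer1g, was called at an adjusted p under 0.05, against 6.96% of all tested genes called in either direction and 4.3% called higher. It passed the study's added threshold of a fold change of 2 as well, against 1.79% of all tested genes. The levels of the other 9 overlapped between the genotypes, and Fcer1g alone did not, against 17.5% of all tested genes without overlap in either direction and 8.7% higher without overlap. At an unadjusted p under 0.05 there were 2 of 10 members, Cd3e and Fcer1g, below the 31.9% of all tested genes at that threshold. So the members lay higher in KOIEC on average, with a spread between libraries that left 9 of 10 short of a call. In bulk RNA, more cells of a type and more RNA per cell cannot be told apart.

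The T cell receptor complex and its coreceptor come first. Cd3e, which carries the receptor's signal into the cell (ENSMUSG00000032093, chromosome 9, 44998740 to 45009627, minus strand, GRCm38), was at 1.88, 1.41, 0.480 and 2.01 CPM in WT replicates 1 to 4. In KOIEC replicates 1 to 4 it was at 1.37, 2.14, 11.3 and 4.14 CPM. KOIEC replicates 3 and 4 were the highest and WT replicate 3 the lowest, and KOIEC replicate 1 lay inside the WT range. The log2 fold change was 1.70 (SE 0.67, edgeR adjusted p = 0.119), the largest among the members. By an exact two-sided permutation of the 8 libraries its p was 0.143, where the smallest p that 4 against 4 allow is 0.0286. Cd3e overlaps the predicted genes AC122305.3 and AC122305.4, and the strand setting of the counting is not given in the sources used here.

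Cd3g, another CD3 chain on chromosome 9 (44969572 to 44980431), was at 3.22, 2.45, 0.640 and 6.11 CPM in WT and at 1.90, 3.66, 14.8 and 9.56 CPM in KOIEC. The groups overlapped, with the same libraries at the top and the bottom as for Cd3e, and the log2 fold change was 1.26 (SE 0.70, edgeR adjusted p = 0.244). Cd8a (chromosome 6, 71373427 to 71379173) was at 6.54, 3.77, 1.52 and 10.9 CPM in WT and at 6.03, 5.88, 37.8 and 17.7 CPM in KOIEC. Its log2 fold change was 1.56 (SE 0.70, edgeR adjusted p = 0.159). KOIEC replicates 1 and 2 lay below WT replicate 1, so the overlap of the groups covered 2 KOIEC libraries.

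Itgae (chromosome 11, 73090583 to 73147446), the chain that pairs with integrin beta 7 to hold these cells at E-cadherin, was at 9.94, 5.84, 3.12 and 10.6 CPM in WT. In KOIEC it was at 7.29, 6.87, 32.1 and 22.4 CPM, again with replicates 3 and 4 apart from 1 and 2. The log2 fold change was 1.21 (SE 0.55, edgeR adjusted p = 0.163). Ptprc (chromosome 1, 138062861 to 138175708), which encodes the leukocyte phosphatase CD45, was at 8.24, 5.94, 6.40 and 17.5 CPM in WT and at 7.51, 7.86, 30.4 and 30.8 CPM in KOIEC. Its log2 fold change was the smallest, 1.00 (SE 0.55, edgeR adjusted p = 0.234), and it was the only member highest in KOIEC replicate 4. Ptprc marks every leukocyte class and so does not separate T cells from B cells or macrophages, and it overlaps A130071D04Rik.

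Among the effector genes, Gzma (chromosome 13, 113093825 to 113100981) had the most counts of the members in every library. It was at 39.0, 32.5, 8.80 and 57.2 CPM in WT and at 21.6, 38.1, 195 and 93.8 CPM in KOIEC. WT replicate 4 lay above KOIEC replicates 1 and 2, and the log2 fold change was 1.34 (SE 0.69, edgeR adjusted p = 0.211). Gzmb (chromosome 14, 56258838 to 56262260), which cleaves caspases in the target cell, was at 16.5, 15.1, 3.36 and 16.6 CPM in WT and at 11.8, 15.3, 70.7 and 32.8 CPM in KOIEC. Here 3 WT libraries sat close together and WT replicate 3 far below them, and the groups overlapped (log2 fold change 1.34, SE 0.61, edgeR adjusted p = 0.166).

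Nkg7 (chromosome 7, 43437073 to 43438249) was at 2.06, 1.32, 0 and 2.97 CPM in WT and at 0.846, 1.53, 11.9 and 6.25 CPM in KOIEC. The 0 in WT replicate 3 allows a level of up to 0.252 CPM, and the log2 fold change of 1.67 had the largest standard error among the members, 0.94 (adjusted p = 0.247, edgeR). Ccl5 (chromosome 11, 83525778 to 83530518) was at 10.7, 6.98, 1.84 and 13.9 CPM in WT and at 5.18, 5.80, 50.2 and 27.7 CPM in KOIEC. Its KOIEC replicates 1 and 2 were below 3 of the 4 WT libraries, and its log2 fold change was 1.41 (SE 0.77, edgeR adjusted p = 0.238). By the exact two-sided permutation test Ccl5 had the largest p among the members, 0.343.

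Fcer1g (chromosome 1, 171229572 to 171234365) was the 1 member of 10 called higher in KOIEC, where 4.3% of all tested genes were called higher. This adaptor carries activating signals for Fc receptors and natural killer receptors and is expressed by natural killer cells, mast cells and macrophages as well as by some intraepithelial T cells. It was at 1.70, 1.04, 1.20 and 1.53 CPM in WT and at 2.43, 2.52, 6.36 and 3.86 CPM in KOIEC. Every KOIEC library was above every WT library, on 11 to 60 counts per library. The log2 fold change was 1.46 with the smallest standard error among the members, 0.36, and the adjusted p was 0.0475 in edgeR. The exact two-sided permutation test gave 0.0286, the smallest p that this design allows. The call held in 2 of the 8 fits that leave out 1 library (without WT replicate 4 and without KO replicate 1), and the adjusted p over these 8 fits ran from 0.0256 to 0.135. Fcer1g is also the member with the highest level in organoids relative to crypts, as given above. Markers of other cells that use it stood as follows, and their part in the result was not tested. The summed level of 8 macrophage and monocyte genes was 9.91 to 10.9 CPM in WT and 4.76 to 7.74 CPM in KOIEC. That of 6 mast cell genes was 78.1, 10.9, 9.12 and 9.97 CPM in WT replicates 1 to 4 and 2.43, 14.3, 8.91 and 22.7 CPM in KOIEC replicates 1 to 4, so the groups overlapped. Of 18 cytotoxic and natural killer receptor genes only 4 could be tested. These 4 had log2 fold changes above 0 (median 1.26), with 0 called. Ncr1, the natural killer cell gene of that list, had 0 counts in all 8 crypt libraries.

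**Figure D2:**
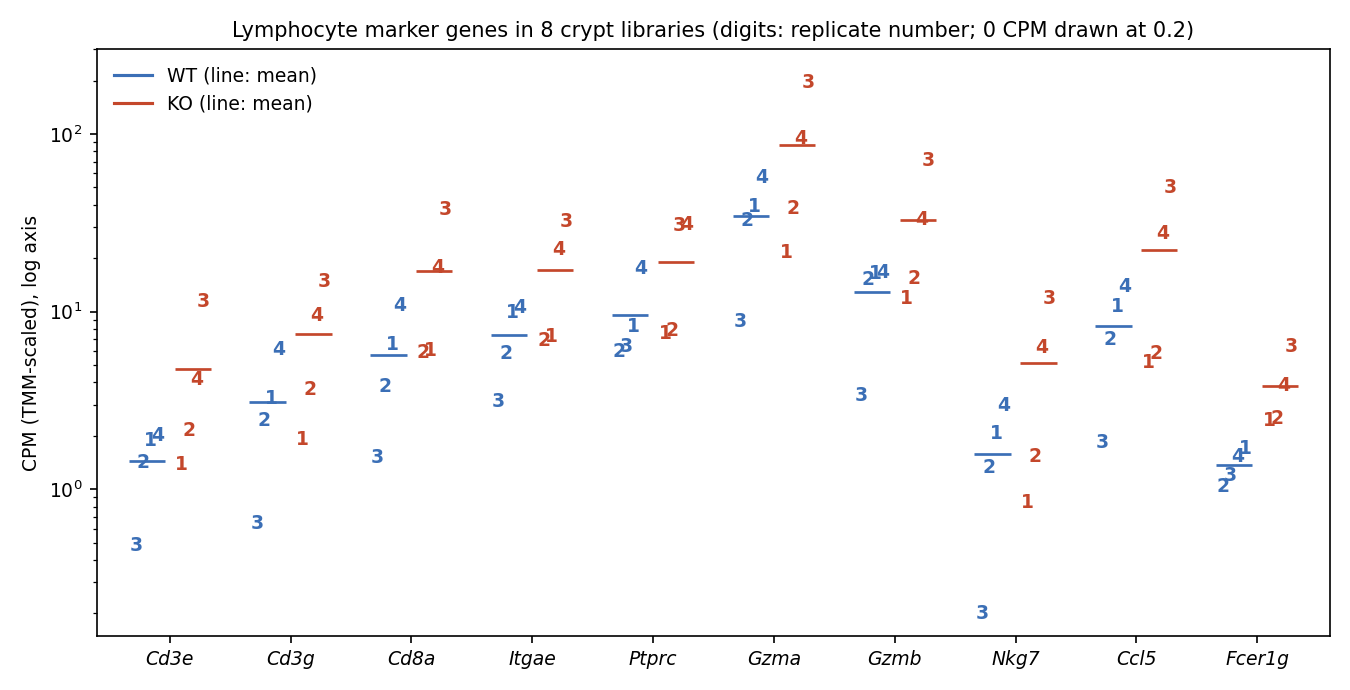
Digits give the replicate number of each crypt library at its TMM-scaled CPM (log axis) for the 10 members, with WT in blue, KO in red and a line at the mean of each group. KO replicates 3 and 4 are the highest libraries for all 10 members, WT replicate 3 is the lowest for 8, and the groups are apart for Fcer1g alone.

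The members moved together from library to library. KOIEC replicate 3 was highest for 9 members and KOIEC replicate 4 was second for 9. WT replicate 4 came next for 8, and WT replicate 3 was lowest for 8 and in the lowest 2 for all 10. KOIEC replicate 1 was in the lowest 2 libraries for 6. Over all 13427 tested genes, 21.2% were highest in KOIEC replicate 3 and 17.0% were lowest in WT replicate 3. The ratio of the highest to the lowest library ran from 5.18 for Ptprc to 27.3 for Ccl5 over the 9 members with no library at 0. Summed over the 10 members, the level was 99.7, 76.4, 27.3 and 139 CPM in WT replicates 1 to 4 and 66.0, 89.6, 461 and 249 CPM in KOIEC replicates 1 to 4. The sum thus varied by 5.09 times within WT and by 6.99 times within KOIEC, while the KOIEC mean (216 ± 182 CPM, SD, n = 4) was 2.53 times the WT mean (85.7 ± 46.7 CPM, SD, n = 4). Without KOIEC replicate 3 that ratio was 1.57.

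While the sum changed, its make-up stayed much the same. Gzma made up 32.2% to 42.6% of the summed level in the 8 libraries, Gzmb 11.9% to 19.8%, Ccl5 6.47% to 11.1%, Itgae 6.97% to 11.4% and Cd8a 4.94% to 9.13%. The share of Ptprc varied more, from 6.60% to 23.4%, and that of Fcer1g ran from 1.10% to 4.39%. Both were at their highest share in WT replicate 3, the library with the lowest sum. Across the 8 libraries the mean log2 level of Cd3e, Cd3g and Cd8a correlated with Gzma, Gzmb, Itgae, Ccl5 and Nkg7 at Pearson's r of 0.975 to 0.990, with Ptprc at 0.886 and with Fcer1g at 0.842. These r values are descriptions over 8 libraries that share their depth and their composition with all other genes.

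**Figure D3:**
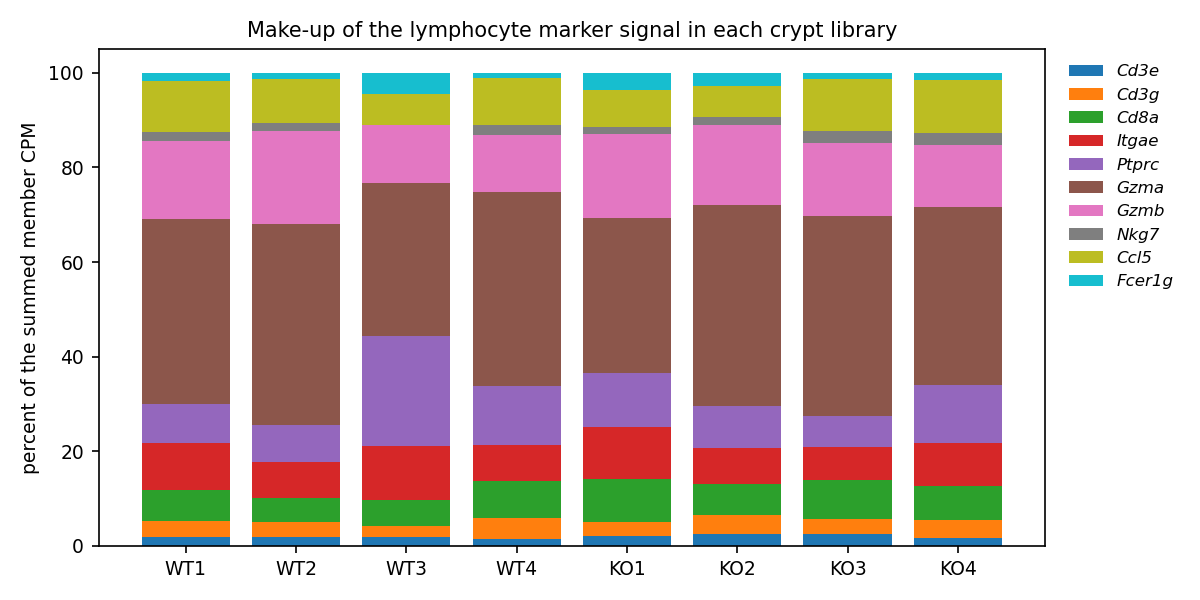
Each bar is 1 crypt library and splits the summed CPM of the 10 members into percent per gene. Gzma is the largest part of each bar, between 32.2% and 42.6%, and the Ptprc part is widest in WT3, at 23.4%.

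The genes that followed the T cell members most closely, by the same r among 13427 tested genes, began with a pair of genes that T cells express. Cd7, a T and natural killer cell surface protein, had an r of 0.992, and Ccr9, the receptor that brings T cells to the small intestine, had 0.990. Il2rb, the receptor chain shared by IL-2 and IL-15, was at 0.980 and Rasgrp1, which links the T cell receptor to Ras, at 0.976. The other 6 of the 10 most alike genes were Gal3st2, 4430402I18Rik, Tmem143, Creb3, Mppe1 and Lrrc66, with r from 0.976 to 0.987. Gal3st2, for example, was at 23.7 to 54.8 CPM in WT and at 36.0 to 82.5 CPM in KOIEC. None of the 10 was called, with adjusted p values of 0.122 to 0.342 in edgeR. Genes of villus enterocytes had a median r of 0.83, genes of the crypt base had -0.69, and the median over all tested genes was -0.08.

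Stretches of promoter are shown for members that moved together, to set the granule genes beside a T cell coreceptor gene and the called gene. They lie just outside the gene intervals of the tables, come from RefSeq (GRCm38.p6) and read 5′ to 3′ on the strand of the gene, and their positions below count back from the RefSeq start. Capitals mark the letters TGTGGT or their reverse complement, a core that RUNX factors bind, in the first 3, and AGGAAG, an ETS core, in Fcer1g. Cd8a is printed for contrast and has neither in this stretch.
Gzma, chr13:113100982-113101101, minus strand: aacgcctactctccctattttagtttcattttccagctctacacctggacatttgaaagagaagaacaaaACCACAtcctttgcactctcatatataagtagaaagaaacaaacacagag
Gzmb, chr14:56262335-56262454, minus strand: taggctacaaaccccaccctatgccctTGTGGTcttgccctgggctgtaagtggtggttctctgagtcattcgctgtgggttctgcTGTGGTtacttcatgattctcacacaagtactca
Nkg7, chr7:43436953-43437072, plus strand: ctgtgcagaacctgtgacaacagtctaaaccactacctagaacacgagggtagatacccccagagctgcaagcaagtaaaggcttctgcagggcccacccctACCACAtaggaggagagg
Fcer1g, chr1:171234366-171234485, minus strand: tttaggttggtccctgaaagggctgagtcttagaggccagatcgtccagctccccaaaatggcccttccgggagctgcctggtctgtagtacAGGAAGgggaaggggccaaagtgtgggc
Cd8a, chr6:71373307-71373426, plus strand: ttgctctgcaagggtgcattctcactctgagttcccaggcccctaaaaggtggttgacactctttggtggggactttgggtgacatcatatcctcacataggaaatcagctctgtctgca

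Promoters of 8 members were matched in RefSeq, and Itgae and Ccl5 were not. Over 250 bases before the start, on both strands, TGTGGT was found in Gzma (position -50), Gzmb (-93 and -34) and Nkg7 (-83), which are the 3 granule genes, and in none of Cd3e, Cd3g, Cd8a, Ptprc and Fcer1g. It is in 14.0% of 32851 promoters. AGGAAG was in Cd3e, Fcer1g, Nkg7 and Ptprc, and is in 29.5% of all promoters. The other 6 motifs searched were rarer among the members. The T-box letters GGTGTG (16.3% of all promoters) and the STAT letters TTCNNNGAA (7.02%) were in Nkg7, the AP-1 letters TGANTCA (6.75%) in Gzmb, TATAAA (12.4%) in Ptprc, and the NFAT letters GGAAAA (20.4%) in Gzma and Ptprc. The E-box letters CAGCTG (13.0%) were in none. No matches overlapped each other. A match describes letters in this window and not a bound site.

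Per kilobase of exon, levels can be compared between members. Gzma stood at 34.2 ± 19.9 CPM per kb in WT (SD, n = 4) and 86.6 ± 77.9 in KOIEC (SD, n = 4), above all other members. Gzmb (8.96 ± 4.44 in WT and 22.7 ± 18.8 in KOIEC) and Ccl5 (8.69 ± 5.40 and 23.1 ± 22.3) followed, and these neighbours did not differ beyond their spread. Nkg7, Itgae, Fcer1g and Cd8a lay between 1.56 and 1.74 CPM per kb in WT and between 3.75 and 5.61 in KOIEC, with no order among them beyond the spread. Cd3g was at 0.950 ± 0.696 CPM per kb in WT, and Ptprc (0.520 ± 0.296) and Cd3e (0.354 ± 0.170) were the lowest members.

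The members were also set against genes that tell T cell classes apart, chosen after their values were seen. Cd8a was above Cd8b1, the beta chain, in all 8 libraries, with a median ratio per kilobase of 13.9 (7.85 to 18.3 in the libraries with counts of both) on 950 counts against 28. Cd8a was also above Cd4 in all 8 libraries (median ratio 13.6, 43 counts of Cd4). Trdc, the constant gene of the delta chain, was at 0.202 to 0.544 of Trac, that of the alpha chain, per kilobase. In counts Trdc was the higher, 185 against 143, and its listed length was 3865 bases against 935. Mean levels over the 8 libraries were 3.27, 3.61 and 1.48 CPM per kb for the gamma constant genes Tcrg-C1, Tcrg-C2 and Tcrg-C4. They were 1.80 for Trac and 1.70 and 3.87 for the beta constant genes Trbc1 and Trbc2. The ratio of Gzma to Gzmb stayed between 2.60 and 4.93, while the level of Gzma itself varied by 22.2 times over the 8 libraries.

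The wider genes of the same cells had been listed beside the members. Of 22 T cell receptor, coreceptor and signalling genes 13 could be tested. All 13 had log2 fold changes above 0 (median 1.18), against 48.9% of all tested genes. Of them 0 were called, with 1 at an unadjusted p under 0.05 in edgeR. In this list 12 genes were highest in KOIEC replicate 3 and 11 were lowest in WT replicate 3, against 21.2% and 17.0% of all tested genes. These are the same libraries that were at the extremes for most members. Cd7 was at 1.60 to 6.99 CPM in WT and 5.18 to 29.6 CPM in KOIEC (log2 fold change 1.52, SE 0.60, edgeR adjusted p = 0.122). Zap70, the kinase that binds the activated receptor, had a log2 fold change of 1.61, and Tcrg-C4, a constant gene of the gamma chain, had 1.54. Cd28, the costimulatory receptor of conventional T cells, had 0 counts in all 8 crypt libraries. Of the cytotoxic and natural killer receptor genes 4 of 18 could be tested. All 4 were above 0 with 0 called and 1 at an unadjusted p under 0.05 in edgeR, among them the granule-associated cathepsin Ctsw (1.64, adjusted p = 0.106), the adaptor Tyrobp (1.12) and the receptor chain Klrd1 (1.39). These 4 were also all highest in KOIEC replicate 3 and lowest in WT replicate 3. Ncr1, which defines natural killer cells and type 1 innate lymphoid cells, had 0 counts in all 8.

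Of 18 homing, residence and identity genes 9 could be tested. In this list 8 were above 0, 0 were called and 4 had an unadjusted p under 0.05 in edgeR. Of the 9, 6 were highest in KOIEC replicate 3 and 5 were lowest in WT replicate 3. Only 11 of the 18 were at or under 3 counts in every organoid library, so this list does not count lymphocytes alone. Runx3, a transcription factor needed for CD8 T cells, was at 0.560 to 0.884 CPM in WT and 0.951 to 6.04 CPM in KOIEC, without overlap. Its log2 fold change was 1.93 (SE 0.56, edgeR adjusted p = 0.0623), and that of the adhesion receptor Cd96 was 1.81 (adjusted p = 0.0731, groups overlapping). Jaml went the other way. This junctional adhesion receptor of γδ T cells was at 41.2 to 47.7 CPM in WT and 32.3 to 38.1 CPM in KOIEC, without overlap (log2 fold change -0.35, SE 0.09, edgeR adjusted p = 0.0512). Jaml had 10778 counts in the 8 organoid libraries, more than any member had in organoids, so cultures of epithelium alone gave this transcript. It was at 127 and 118 CPM in WT and 81.3 and 66.1 CPM in KO Villin organoids. In the CAG organoids it was at 147 and 149 CPM in WT and 108 and 127 CPM in KO. Jaml was thus lower in KO in both organoid sets, with 2 libraries on each side. The share of all tested genes separated in this way was not counted there. Of the 14 pan-leukocyte genes 12 were above 0 (median 0.42), with 0 called and 0 at an unadjusted p under 0.05 in edgeR. Only 6 of the 14 were at or under 3 counts in every organoid library. Lcp1, the highest gene of this list in crypts, was named after its values were seen. It was at 18.1 to 33.8 CPM in the crypts and at 38.6 to 144 CPM in the organoids, so this list does not count leukocytes alone. Dock2 had a log2 fold change of 1.06, Rac2 of 1.05 and Cd53 of 0.93.

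Genes by which the epithelium addresses these lymphocytes were the only one of the 5 wider lists with calls. Of 14 tested ligands and cytokines, 4 were called higher, against 4.3% of all tested genes. With the villus enterocyte score or the mitochondrial ribosomal RNA class as a covariate, both described below, 0 of them were called. Over all genes 1 and 2 were called in those fits. Cxcl11, a chemokine for CXCR3, was at 0.754 to 1.53 CPM in WT and 2.11 to 5.70 CPM in KOIEC, without overlap (log2 fold change 1.89, SE 0.36, edgeR adjusted p = 0.0397). Btnl6 and Btnl4, butyrophilin-like proteins of enterocytes that maintain γδ intraepithelial T cells, rose by log2 fold changes of 1.08 (adjusted p = 0.0490) and 0.62 (adjusted p = 0.0482, edgeR). The groups overlapped for both. Cxadr, the epithelial ligand of JAML, was named after its values were seen. It was at 96.7 to 122 CPM in WT and 131 to 146 CPM in KOIEC (log2 fold change 0.40, SE 0.10, edgeR adjusted p = 0.0491), without overlap. Leaving out 1 library took the count of 4 to 0 in 5 of the 8 fits (without WT replicates 1, 2 or 3 or KOIEC replicates 2 or 3), to 1 without KOIEC replicate 4 and, over all 5 wider lists, to 11 without WT replicate 4 or KOIEC replicate 1. For 3 other partners, also chosen after their values were seen, the adjusted p in edgeR was 0.0776 for Il15 (log2 fold change 0.75), 0.184 for Ccl25, the ligand of CCR9 (0.47), and 0.426 for Cdh1, the E-cadherin gene (0.15).

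Markers of other cells moved in several ways. The 10 villus enterocyte genes all had log2 fold changes above 0, with a median of 1.57. None was called and 9 had an unadjusted p under 0.05 in edgeR. Their summed level was 6096, 3128, 2246 and 9819 CPM in WT replicates 1 to 4 and 8601, 13612, 18380 and 19021 CPM in KOIEC replicates 1 to 4. Within WT the libraries came in the same order by this sum as by the member sum, and within KOIEC they did so except that replicates 3 and 4 changed places. Of 6 crypt base genes 0 were above 0 and 2 were called lower, the stem cell genes Lgr5 (log2 fold change -0.74) and Ascl2 (-0.67), and the summed level of that list was lowest in KOIEC replicate 3, at 2708 CPM. Of 5 tested B cell genes 0 were above 0 (median -1.16) and 1, Cd79b, was called lower, where 2.66% of all tested genes were. The B cell sum was 7.61 to 29.3 CPM in WT and 2.01 to 9.74 CPM in KOIEC, and it was lowest in KOIEC replicate 3, where the T cell genes were highest. The sums for plasma cells were 31.7 to 78.7 CPM in WT and 29.5 to 92.8 CPM in KOIEC. For stroma they were 4.26 to 7.36 and 1.06 to 4.23 CPM, for endothelium 1.04 to 1.93 and 0.529 to 1.93 CPM, and for red blood cells 0.643 to 3.58 and 0.742 to 1.27 CPM. The 6 general epithelial genes summed to 8448 to 10242 CPM in WT and 9253 to 10256 CPM in KOIEC, and 1 of them, Vil1, was called higher. Lgr5, Ascl2 and Vil1 were named after their values were seen. The highest genes of the lists were Apoa1 (villus enterocyte), Defa24 (crypt base), Cd79b (B cell), Igha (plasma cell), Cd68 (macrophage and monocyte), Mcpt1 (mast cell), Col3a1 (stroma), Pecam1 (endothelium), Hbb-bs (red blood cell) and Krt8 (epithelium), and no gene of these lists was at 0 in all crypt libraries. Of these, Mcpt1 reached 57.0 CPM in a WT library, and Igha was at 15.6 to 40.5 CPM in WT and 12.1 to 54.2 CPM in KOIEC.

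**Figure D4:**
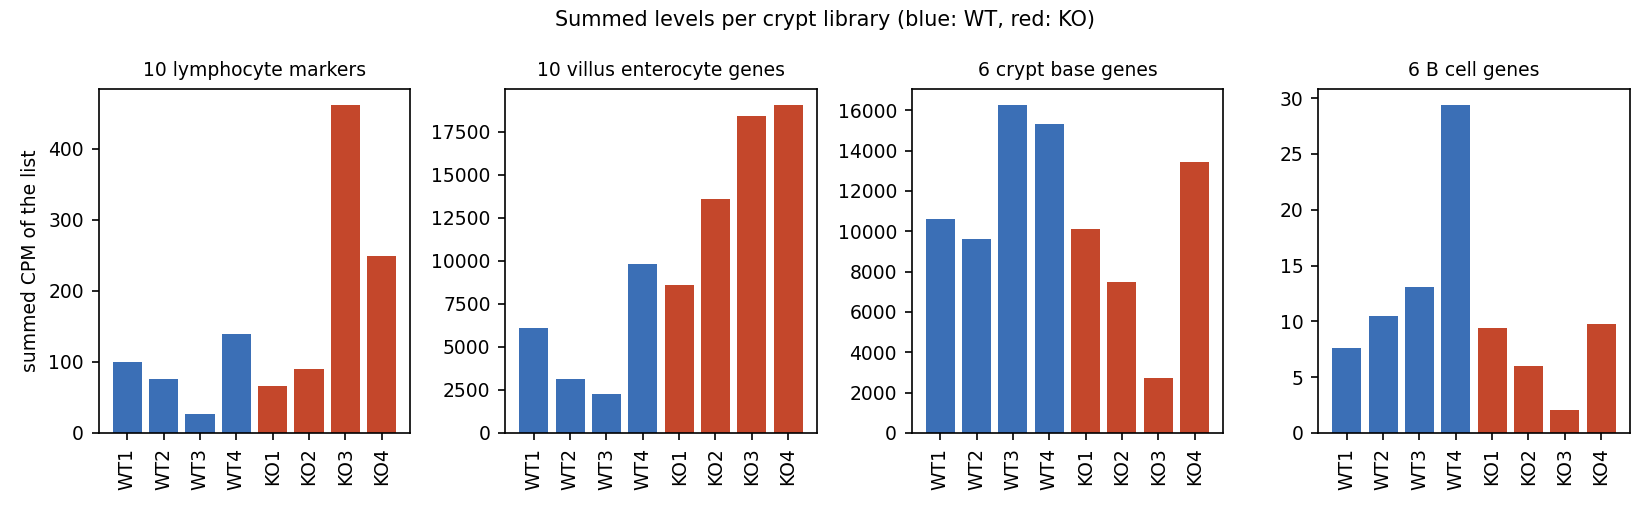
Bars give the summed TMM-scaled CPM of 4 gene lists in each crypt library (WT in blue, KO in red, axes starting at 0). The lymphocyte markers and the villus enterocyte genes are both high in KO3 and KO4 and low in WT3, while the crypt base and B cell genes are lowest in KO3.

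Because the villus genes moved with the members, the genotype effect was also fitted beside a villus enterocyte score, the mean log2 CPM of those 10 genes. That score was 7.28 to 9.65 in WT and 9.42 to 10.7 in KOIEC, so the genotypes met only at WT replicate 4 and KOIEC replicate 1. Beside the score 9 of the 10 members had a log2 fold change under 0. The median was -0.66, and Fcer1g stayed at 0.69 (SE 0.52, edgeR adjusted p = 0.729). In this fit 1 of 13427 genes was called. The same 10 genes summed to 4748 and 5152 CPM in WT and 13550 and 10764 CPM in KO CAG organoids. In Villin organoids they summed to 6444 and 11455 CPM in WT and 4466 and 14468 CPM in KO, with overlap. The study reports raised Alpi, Apoa4 and Krt20, all in the score, in Cul4b-deficient intestine. Whether the score follows villus carried over or the genotype was not tested. Which part of a difference belongs to the score and which to the genotype cannot be told apart in 8 libraries whose scores are so divided.

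The crypt libraries also fell into 3 classes by the RNA of the mitochondrial ribosome, mt-Rnr1 plus mt-Rnr2. It was at 18.6 to 27.6 CPM in WT replicate 1 and KOIEC replicates 1 to 3, at 833 and 1107 CPM in WT replicate 4 and KOIEC replicate 4, and at 2740 and 2737 CPM in WT replicates 2 and 3. In the low class, which holds 1 WT library, the mean difference in log2 CPM, KOIEC minus WT, was above 0 for all 10 members (0.11 to 0.93). Without KOIEC replicate 3 it was above 0 for 1 of 10, Fcer1g at 0.50, with a median of -0.28. In the middle class, 1 library of each genotype, it was 0.63 to 1.24 and above 0 for all 10. The high class holds WT libraries alone and so gives no difference between genotypes. With the mitochondrial class as a covariate the median log2 fold change was 0.97 and 0 members were called, with 1 at an unadjusted p under 0.05 in edgeR. The part of this class in the differences was not tested further.

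**Figure D5:**
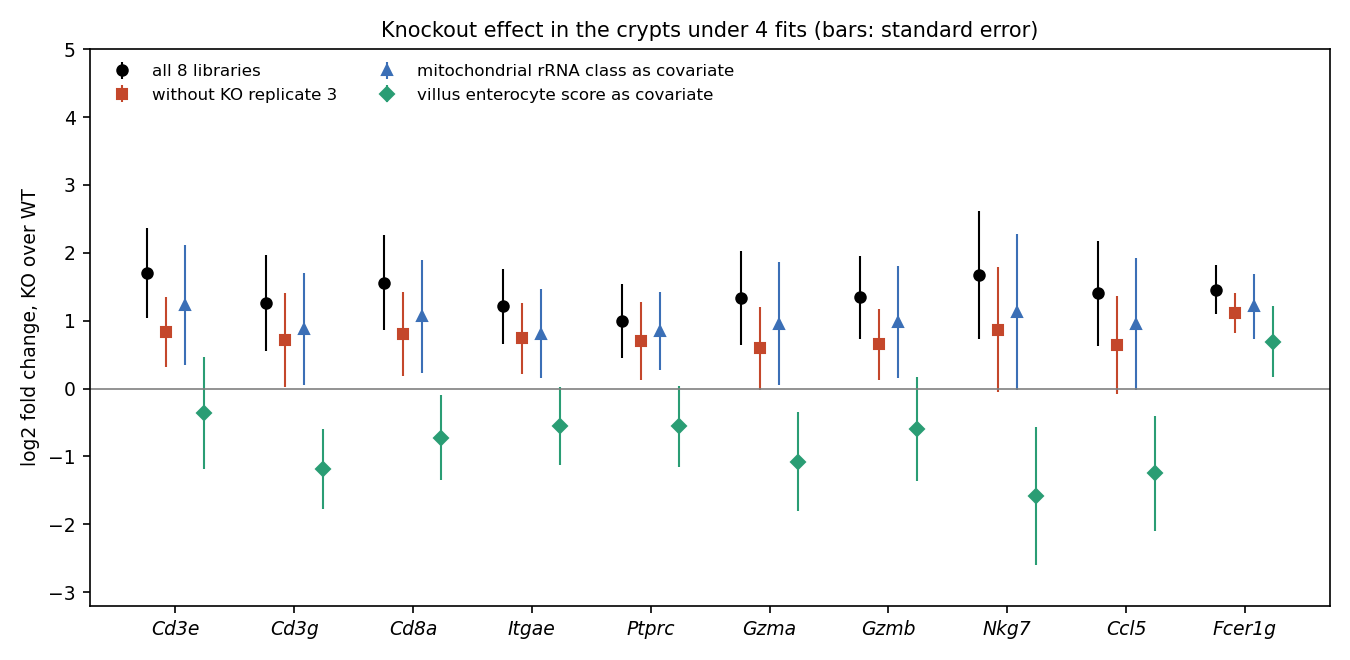
Points give the log2 fold change (KO over WT) of each member in the crypts with its standard error, in 4 fits marked by shape and colour. With all 8 libraries the members lie between 1.00 and 1.70. Without KO replicate 3 their median is 0.73, and beside the villus enterocyte score 9 of 10 lie under 0.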

How the data were processed

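RNA-seq libraries of 8 crypt and 8 organoid samples were grouped by genotype, tissue and replicate number from the sample labels. For each experiment the authors deposited 1 table of unnormalized read counts, which also lists gene lengths. The submitters' processing notes name HISAT2 2.0.5 and featureCounts 1.5.0-p3. The strand setting and the genome build are not given in the sources used here, and gene positions in the tables were those of GENCODE on GRCm38. The members and lists were chosen with earlier results of these data known.

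KO was compared with WT in each experiment by itself. After filterByExpr and TMM scaling, the quasi-likelihood test of edgeR 4.0.16 (R 4.3.3) was run without a block, and p values were adjusted by Benjamini-Hochberg over every gene tested. A gene was called at an adjusted p under 0.05. The study's own threshold adds a fold change of 2. A prior count of 2 was used for log2 CPM. Single members were also compared by exact permutation. The p-values set the difference between genotypes against the spread between these libraries.

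Named genes were the 10 members, the 3 tested genes with the smallest p of each of 5 wider lists, the 10 genes whose log2 CPM followed the mean of Cd3e, Cd3g and Cd8a most closely, and, from lists of other cells, the highest gene and any gene at 0 in all crypt libraries. Genes outside this rule are named as chosen after their values were seen. Cd244a of the cytotoxic list is not in the crypt table. Alternatives were other scalings and filters, DESeq2 1.42.0, covariates, leaving out libraries, and the replicate number as a block. Same-numbered WT and KO crypt libraries deviated from their group means with correlations of -0.40 to 0.43, from which pairing cannot be told. The steps were tested on simulated data.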

Additional observations from a re-analysis of the deposited data

Results flagged for a closer look

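The lowest WT crypt library for Gzmb, replicate 3 at 3.36 CPM, lay far from the other 3 WT libraries (15.1 to 16.6 CPM). Its gap to the nearest of them was 0.888 of the group's whole range, above Dixon's 95% critical value for 4 libraries. It was the only value past that value among 20 groups tested (10 members in 2 genotypes), where chance alone gives about 1 in 20. The same library was the lowest of all 8 for 8 members.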

How the results depend on the processing

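In the crypts the number of members called was 1 in the fit reported, and it was 1 as well with a fold change of 2 added, with DESeq2 size factors, without the low-count filter and with at least 10 counts in every library, where 7 members could be tested. It was 0 with scaling by library size only (adjusted p of Fcer1g 0.0505), 0 when the mitochondrial ribosomal RNA class was a covariate, 0 beside the villus enterocyte score, and 2 (Fcer1g and Cd3e) by the Wald test of DESeq2. Without the low-count filter all 10 members had an unadjusted p under 0.05, as did 5133 of the 30118 genes of that fit, and the adjusted p of the 9 members not called was 0.0715 to 0.215 (edgeR). Leaving out 1 library gave 0 to 1. After the data were seen, the WT libraries 2 and 3 were left out, which gave 0, and then KO libraries 3 and 4 with WT library 4, which also gave 0 and a median log2 fold change of 0.22. In that last fit Ccl5 was at -0.21.

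The count over the 5 wider lists was 4. It was 2 with a fold change of 2 added, 2 with DESeq2 size factors, 1 with library size only, 7 without the filter, 12 with DESeq2, and 0 with either covariate, and leaving out 1 library gave 0 to 11. Over all genes the count was 934. It was 240 with a fold change of 2 added, 1479 without the filter, 2457 with DESeq2, 2 with the mitochondrial class and 1 beside the villus score, and leaving out 1 library gave 2 to 2468.

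WT and KO libraries share replicate numbers. With the replicate block the crypts gave 0 members, 0 wider list genes and 4 genes in all, and a median log2 fold change of 1.06 over the members. The deviations of same-numbered crypt libraries correlated at -0.04, 0.19, -0.40 and 0.43. Such values over 4 replicate numbers cannot settle whether the libraries were paired, and the labels do not say. In the KOIEC organoids the correlation was 0.34 and in the KOCAG organoids 0.067, and the block called 0 members in both.

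Direction turned beside the villus score for Cd3e (-0.36), Cd3g (-1.19), Cd8a (-0.73), Ptprc (-0.56), Itgae (-0.55), Gzma (-1.08), Gzmb (-0.60), Ccl5 (-1.25) and Nkg7 (-1.58), and for Cd7 (-0.45), Zap70 (-0.996), Tcrg-C4 (-0.76), Ctsw (-0.34), Tyrobp (-0.72), Klrd1 (-1.43), Dock2 (-0.49), Rac2 (-0.86) and Cd53 (-0.22), all log2 fold changes. In the KOIEC organoids Itgae was at -0.015 with library size only, and leaving out 1 library gave -0.64 to 1.47. In the KOCAG organoids the number of members called was 0, and leaving out 1 library gave 0 to 1 (Fcer1g, adjusted p = 0.0351 without KO replicate 2, edgeR). The cause of these changes was not tested. With at least 10 counts in every library, Cd3e, Cd3g and Nkg7 could not be tested in the crypts. Of the members, Fcer1g had the fewest crypt counts in all, 222.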
